A study of Mus musculus with 22 samples.

Results

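Cultured mouse cortical neural stem cells (NSCs) that had received no doxycycline (Dox) were compared between embryonic stages E13.5 and E12.5, using poly(A)+ paired-end RNA-Seq. The rule took 5 of the 22 samples of the series, which hold 14 RNA-Seq samples. Both lines came from 129SvJae mice that carry the M2rtTA transactivator in the Rosa26 locus. The KH2 line has no Msi cDNA, while the MSI1 line also holds an Msi1 cDNA under a tet operator in the Col1a1 locus, which stays uninduced without Dox. E13.5 was represented by KH2 cells and by MSI1 cells sequenced as technical replicates A and B, whose counts were summed. E12.5 was represented by 1 library of each line. All were labeled with a time point of 72 h. The E12.5 floxed cells used below as a further reference carry conditional alleles of both Msi1 and Msi2, either without a CreER recombinase (C1) or with it (C4), and had not received 4-hydroxytamoxifen (4-OHT). Their time point was 48 h. Another tet-inducible line at E12.5, with an Msi2 cDNA in place of Msi1 (MSI2, no Dox), and the Dox-treated MSI1 libraries of both stages (1 µg/ml) were used where stated.

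The data hold 1 culture per line and stage, so stage cannot be told apart from embryo, culture or sequencing batch. In the fit with the line as a block, the p-values measure how unlike the stage difference was in the 2 lines. In the floxed comparison, which had no block, they measure the spread between 2 lines of each kind. Neither measures the spread between separate embryos of a line. The stage labels are those of the libraries. Per the methods, cultures were derived from the cortex of E12.5 embryos unless another stage was noted. In bulk RNA, fewer cells of a type and less RNA per cell cannot be told apart.

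NSCs of the developing cortex are kept dividing in culture by EGF and FGF2 on laminin. They express Nestin and Sox2 and can give rise to neurons first and to glia later. Trib3 and Chac1, the genes fixed for this comparison besides Msi1, are targets of ATF4. ATF4 is a transcription factor whose mRNA is translated when the kinases of the integrated stress response phosphorylate eIF2α, for example upon shortage of amino acids or misfolding of proteins in the endoplasmic reticulum (ER). It raises transcription of amino acid transporters, of enzymes that make serine, proline and asparagine, and of aminoacyl-tRNA synthetases. CHAC1 degrades glutathione, and TRIB3 is a pseudokinase that feeds back on ATF4 and CHOP.

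The 5 libraries held between 12901123 counts (KH2, E12.5) and 41834798 counts (MSI1, E13.5, B). Technical replicates A and B differed little beyond sampling noise, with a chi-square per degree of freedom of 1.68 over 13207 genes. The value was 53.5 between the lines at E13.5, 10.9 between the lines at E12.5, and 146 and 230 between the stages in KH2 and MSI1. It is taken from raw counts and grows with depth. The libraries differ in depth, so its size does not rank these pairs. The 6 E12.5 tet-inducible libraries stood apart from all others. Counts made up 14.9 to 15.8% of the reads behind the deposited RPKM values there, compared to 28.2 to 32.0% in the E13.5 and 32.1 to 34.1% in the floxed libraries, so levels are given here as CPM, which relate a gene's counts to the TMM-scaled total of its library, and not as RPKM. Markers fitted the label of NSCs in part. Of the neural stem markers, Nes, Sox2, Vim and Fabp7 were abundant in every library. So was Olig2, which belongs to the oligodendrocyte lineage list. Hes5, also a neural stem marker, was low in the floxed cells, as given below. Emx1, a transcription factor of cortical progenitors, was at 0 in both E13.5 libraries and at or below 0.0947 CPM at E12.5. Eomes, a marker of intermediate progenitors, was at or below 0.358 CPM at both stages.

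Roughly equal numbers of genes were higher and lower at E13.5. Of 11893 genes tested with edgeR's quasi-likelihood test with the line as a block (at least 1 CPM in at least 2 of the 4 libraries, Benjamini-Hochberg adjusted p under 0.05), 3040 were called higher (25.6%) and 2999 lower (25.2%) at E13.5. At least 2-fold differences were held by 897 of those called higher and 1108 of those called lower, and at least 4-fold differences by 191 and 424. With such a background, a list of genes in which 1 in 4 members is called in each direction is like the genome as a whole. The 2 lines moved alike, with the same direction in both for 6036 of the 6039 genes called and for 10005 of all tested. Across all genes tested, which are not independent replicates, Pearson's r between the KH2 and the MSI1 differences was 0.916. The Dox-treated MSI1 libraries, which took no part in the fit but share its confounding of stage with batch, had 2943 of the 3040 genes higher (96.8%) and 2812 of the 2999 lower (93.8%) at E13.5, where 52.8% of all tested genes were higher. The counts depended on the E12.5 libraries, with fewer genes called in both directions without KH2 or without MSI1. Fits that left out a whole library, here and below, also had no line block. Without an E12.5 library, the spread came from the E13.5 pair only. Their counts are therefore not like for like with those of the main fit.

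**Figure D1:**
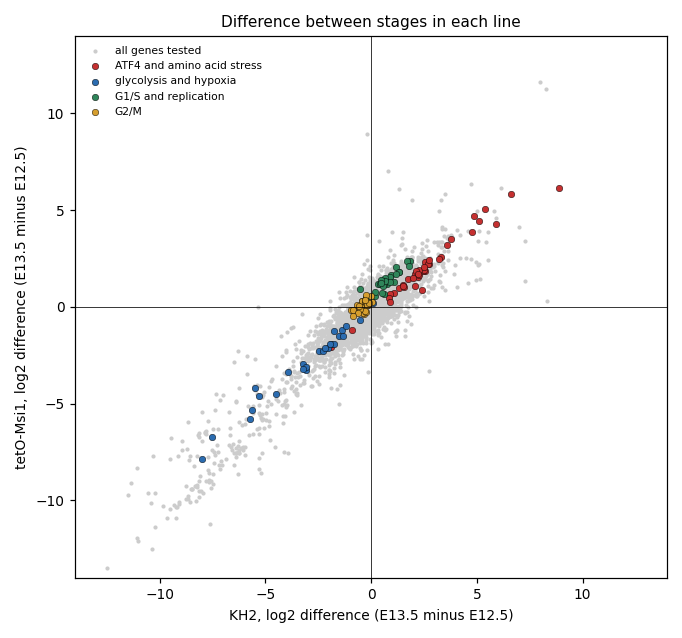
Log2 difference between E13.5 and E12.5 in untreated KH2 cells (x axis) and untreated MSI1 cells (y axis), 1 point per gene tested, with members of the ATF4, glycolysis and hypoxia, G1/S and G2/M lists in color. The ATF4 and the glycolysis and hypoxia members lie along the diagonal on opposite sides of 0, and Pearson's r across all 11893 genes is 0.916.

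Trib3 showed one of the largest rises. Trib3 (ENSMUSG00000032715, mm9 chr2:152163158-152169768, minus strand) was counted at 0.0772 CPM in KH2 and 0.332 CPM in MSI1 cells at E12.5, and at 54.0 and 25.3 CPM at E13.5. The stages did not overlap, and both E13.5 libraries were also above the 0.679 and 0.810 CPM of the floxed C1 and C4 cells and the 3.32 CPM of the MSI2 cells. The log2 difference was 7.21 ± 0.36 (SE, n = 2 against 2), a 148-fold rise (edgeR adjusted p = 1.69e-07). The E12.5 KH2 value is 1 read, so the size of the rise in that line is poorly bounded. With Dox, Trib3 was at 0.365 CPM at E12.5 and 10.6 CPM at E13.5, a log2 difference of 4.65 with a 95% counting interval of 3.13 to 6.16.

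Chac1 (ENSMUSG00000027313) rose from 1.39 and 1.42 CPM in KH2 and MSI1 cells at E12.5 to 141 and 81.7 CPM at E13.5. The floxed cells had 2.14 and 3.33 CPM and the MSI2 cells 19.1 CPM, so every E12.5 library was below both E13.5 libraries. The log2 difference was 6.18 ± 0.20 (adjusted p = 9.02e-09), or 72.5-fold. In the Dox-treated pair it was 3.86 (95% counting interval 3.23 to 4.49), from 2.43 to 36.1 CPM. Both genes were thus higher at E13.5 in KH2, in MSI1 and in Dox-treated MSI1 cells, and at E13.5 both had their highest level in KH2 and their lowest in MSI1 cells with Dox.

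ATF4 binds a composite C/EBP-ATF element whose core reads TGATGNAAN on one strand. This core was searched on both strands in RefSeq promoters (GRCm38.p6, 250 bases before to 50 after each start). It occurred in 1299 of 32851 windows (3.95%) and in 4.5% of 27025 symbols. Among the 34 members of the ATF4 list with a window, 13 held it (38.2%), compared to 0 of 29 members of the glycolysis and hypoxia list and 1 of 25 members of the G1/S list. The ATF4 list holds genes picked for their tie to ATF4, so this share is not a result of these data. Vldlr, which was called lower, also held the core (at -201), whereas Slc7a1, Mthfd2, Atf5 and Ddit3, which rose, did not. The matches of Trib3, Chac1 and 3 more members that rose are printed on the strand of each gene, 10 bases to either side, with the core in capitals. Where it lies on the other strand it reads NTTNCATCA. The positions count from 1 at the start site, and negative positions lie before it. A match is a description of letters and not evidence of binding.
Trib3, chr2:152344029-152344057, first base of the core at 14: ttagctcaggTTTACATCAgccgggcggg
Chac1, chr2:119351038-119351066, at -194: cttccctgccGTTGCATCActcctgccag
Asns, chr6:7693214-7693242, at -23: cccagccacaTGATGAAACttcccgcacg
Nupr1, chr7:126625563-126625591, at -111: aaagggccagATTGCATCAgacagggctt
Slc7a11, chr3:50443661-50443689, at -66: ctcatgtggcTGATGCAAAcctggagaat
Slc7a11, chr3:50443643-50443671, at -48: acctggagaaTTTGCATCAtcatgcagcc

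The ATF4 list as a whole was shifted upward. Of its 40 members 39 were tested, of which 36 were called higher (92.3%, against 25.6% of all genes) and 2 lower (5.13%, against 25.2%) at E13.5, with a median log2 difference of 2.05 compared to 0.00659 over all genes tested. The 36 include Trib3 and Chac1, which were known to rise when the list was drawn up. Both untreated E13.5 libraries were above all 5 untreated E12.5 libraries (KH2, MSI1, MSI2, C1 and C4) for 31 of the 39, and below all 5 for none, compared to 15.3% and 11.9% of all genes tested. The summed level of the list was 4670 to 4740 CPM in the E12.5 pair, 11300 to 15500 CPM at E13.5 and 3910 to 4020 CPM in the floxed cells. The MSI2 library lay between the stages at 8410 CPM, above both E12.5 libraries in 35 and below both E13.5 libraries in 34 of the 39 members. With the MSI2 library added to E12.5 and no line block, 30 members were called higher and 2 lower.

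Atf4 mRNA itself was 159 and 184 CPM at E12.5 (KH2, MSI1) and 667 and 608 CPM at E13.5, a log2 difference of 1.86 ± 0.12 (adjusted p = 1.09e-06). The MSI2, C1 and C4 cells had 401, 376 and 400 CPM, below both E13.5 libraries. Among partner and downstream transcription factors, Atf5 rose from 29.0 and 30.5 to 284 and 180 CPM (2.89 ± 0.17) and Ddit3, which encodes CHOP, from 16.4 and 18.7 to 69.8 and 39.9 CPM (1.54 ± 0.20). Cebpb had the most unequal rise of these, from 8.95 and 7.01 to 47.8 CPM in KH2 and only 13.04 CPM in MSI1 cells, where the floxed cells already had 19.4 and 20.2 CPM.

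**Figure D2:**
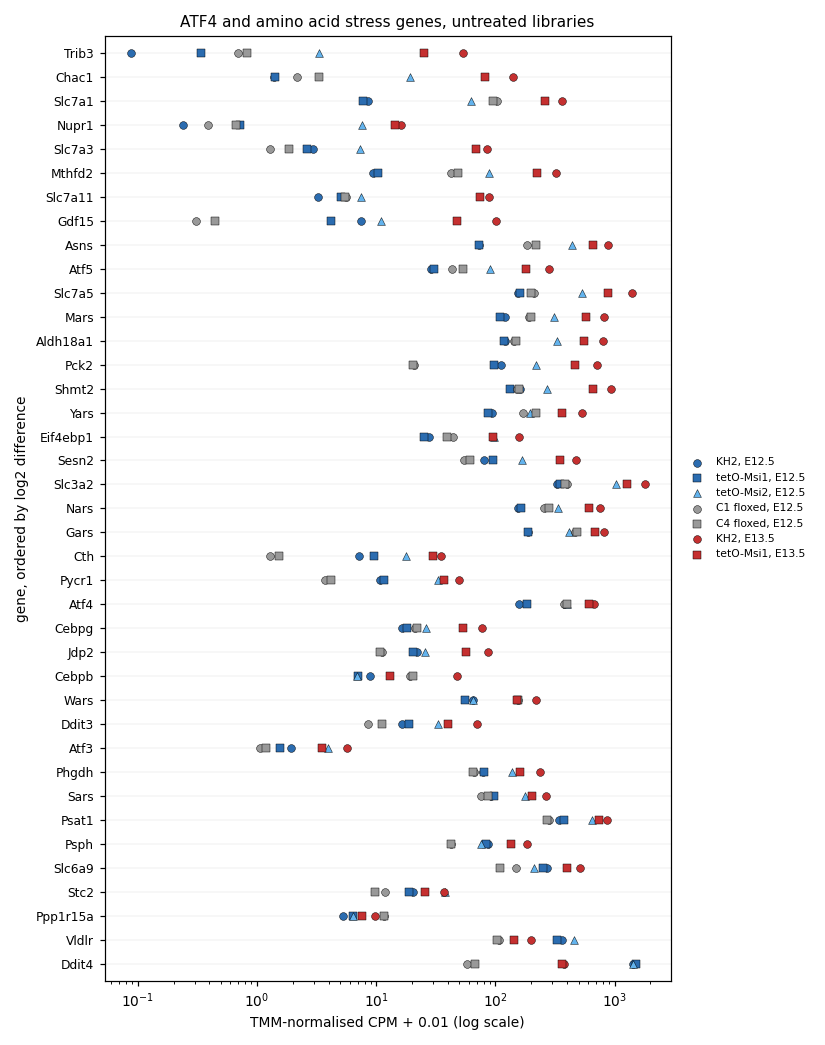
TMM-scaled CPM (log axis) of members of the ATF4 list in each untreated library, 1 point per library, with E12.5 tet-inducible, E12.5 floxed and E13.5 tet-inducible libraries in different colors. Trib3 and Chac1 have the largest differences between the E12.5 and E13.5 libraries of KH2 and MSI1, and the MSI2 library lies above the other E12.5 tet-inducible libraries for 35 of 39 genes. A constant of 0.01 was added to each CPM.

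Amino acid transporters were among the members with large rises, except for the glycine transporter Slc6a9 (0.76). Slc7a1, a transporter of cationic amino acids, was at 8.49 and 7.81 CPM at E12.5 and at 362 and 262 CPM at E13.5 (5.20 ± 0.15, adjusted p = 4.64e-09), with the 103 and 95.5 CPM of the floxed cells in between. Slc7a3, which also carries cationic amino acids, rose from 2.93 and 2.60 to 85.2 and 69.2 CPM (4.76 ± 0.16). Slc7a11, the cystine/glutamate exchanger, rose from 3.24 and 5.12 to 88.7 and 74.2 CPM (4.21 ± 0.20), and the floxed cells resembled E12.5 with 5.57 and 5.50 CPM. The subunits of the large neutral amino acid transporter rose together, Slc7a5 from 154 and 162 to 1412 and 890 CPM and Slc3a2 from 331 and 352 to 1796 and 1269 CPM. None of these 5 transporters had an E12.5 library, of any line, that overlapped with E13.5.

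Enzymes of serine, one-carbon, asparagine and proline metabolism rose as well. Mthfd2, the mitochondrial folate enzyme, went from 9.42 and 10.5 to 325 and 224 CPM (4.71 ± 0.18, adjusted p = 2.35e-08). Asns, which makes asparagine, had 73.5 CPM in both E12.5 libraries and 882 and 665 CPM at E13.5 (3.35 ± 0.13, adjusted p = 3.24e-08). Shmt2, which feeds serine carbon into the mitochondrial folate pool, rose by 2.39 ± 0.11 and Aldh18a1, the first enzyme of proline synthesis, by 2.46 ± 0.14 on the log2 scale. The 3 enzymes of serine synthesis rose less, with log2 differences of 1.26 (Phgdh), 1.12 (Psat1) and 0.86 (Psph). The 6 tRNA synthetases of the list (Sars, Nars, Gars, Wars, Mars and Yars) were all called higher, between 1.26 (Sars) and 2.55 (Mars).

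Further stress-induced members followed. Nupr1, a small chromatin protein, rose from 0.232 and 0.710 to 16.1 and 14.4 CPM (4.84 ± 0.35). Gdf15, a secreted stress cytokine, rose from 7.41 and 4.17 to 101 and 48.2 CPM (3.62 ± 0.15), with 0.296 and 0.438 CPM in the floxed cells. Sesn2, an inhibitor of mTORC1, rose from 80.2 and 96.1 to 476 and 348 CPM (2.18 ± 0.16). For Ppp1r15a, whose product dephosphorylates eIF2α, the log2 difference of 0.53 ± 0.24 did not pass the threshold (adjusted p = 0.0868).

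The only members called lower were Ddit4 and Vldlr. Ddit4, an inhibitor of mTORC1 that is induced by hypoxia as well as by ATF4, fell from 1417 and 1504 to 380 and 360 CPM (-2.01 ± 0.11, adjusted p = 3.43e-07). The floxed cells were lower still at 58.4 and 67.2 CPM. Vldlr, a lipoprotein and Reelin receptor, fell from 366 and 330 to 198 and 145 CPM (-1.06 ± 0.11), and was at 107 and 104 CPM in the floxed cells. The MSI2 library had 1416 CPM of Ddit4 and 456 CPM of Vldlr.

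Genes of ER folding were shifted less, and in the other direction against the floxed cells. Of 19 tested, 9 were called higher (47.4%) and 3 lower, with a median log2 difference of 0.18, and 4 and 1 without the E12.5 KH2 or 3 and 1 without the E12.5 MSI1 library. Against the floxed cells, in the comparison given in full further on, 2 were called higher and 13 lower (median -0.62), where 27.7% of all genes were called in each direction. Hspa5, the chaperone BiP, was at 631 and 571 CPM at E12.5 and 467 and 583 CPM at E13.5 (-0.23 ± 0.12, adjusted p = 0.136). Hyou1, also an ER chaperone, rose from 124 and 112 to 258 and 251 CPM (1.09 ± 0.11), while Dnajb9, a co-chaperone of BiP, fell from 39.7 and 38.9 to 11.03 and 14.6 CPM (-1.65 ± 0.15). Xbp1, the transcription factor of the IRE1 arm, had a log2 difference of -0.11 ± 0.17 (adjusted p = 0.626).

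The floxed E12.5 cells gave the same direction for most of the ATF4 list. When the same E13.5 libraries were compared with the floxed C1 and C4 cells, without a line block, 3275 of 11828 genes were higher (27.7%) and 3279 lower (27.7%) in E13.5. These comparisons share the E13.5 libraries and are not independent. Of the 39 members, 36 were called higher, with a median log2 difference of 1.97. Side by side with the tet-inducible comparison, the log2 differences against the floxed cells were 5.73 for Trib3, 5.36 for Chac1, 0.71 for Atf4, 1.93 for Asns, 1.65 for Slc7a1 and 7.68 for Gdf15. Ddit4 had the opposite sign, at 2.56 ± 0.12. In the Dox-treated pair, 33 of the 39 members were higher at E13.5 and the median difference was 1.21.

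Glycolysis and hypoxia-response genes fell together, but did so as a group only in the comparison with the tet-inducible E12.5 cells. HIF1 is the transcription factor that accumulates at low oxygen and raises glucose transporters, glycolytic enzymes and angiogenic factors. Of 31 such genes 26 were tested, and 25 were called lower at E13.5 (96.2%, against 25.2% of all genes), with a median log2 difference of -2.35. None was called higher, against 25.6% of all genes (edgeR, also none at an unadjusted p under 0.05 and by DESeq2). The other 5 (Pgk1, Ldha, Gapdh, Pgam1 and Eno1) are listed at 0 in all RNA-Seq libraries and are not informative. In the Dox-treated pair the median was also -2.35, with none of the 26 higher at E13.5. Against the floxed cells the list had 8 genes higher and 8 lower of 25 tested, and a median of -0.11. Summed, the list reached 12700 to 14500 CPM in the E12.5 pair and 16200 CPM in the MSI2 library, whereas E13.5 had 3980 to 4710 CPM and the floxed E12.5 cells 3490 to 3540 CPM. Hence the high level was held by the tet-inducible libraries labeled E12.5 and not by the floxed libraries of the same stage.

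Car9, a carbonic anhydrase that regulates pH under hypoxia, showed the largest fall of the list, from 23.2 and 21.6 CPM (KH2, MSI1) to 0.0716 and 0.0833 CPM (-8.08 ± 0.31, adjusted p = 2.91e-08). It was at 0.174 and 0.569 CPM in the floxed and at 1.40 CPM in the MSI2 cells, so here the MSI2 library was unlike the other tet-inducible libraries of E12.5. Ndrg1, a gene induced by hypoxia and differentiation, fell from 76.2 and 61.7 to 0.394 and 0.583 CPM (-7.04 ± 0.21). Slc16a3, the lactate exporter MCT4, was at 346 and 279 CPM at E12.5, 6.45 and 5.08 CPM at E13.5, and 3.24 and 3.20 CPM in the floxed cells. Thus Slc16a3 fell by 5.79 ± 0.13 on the log2 scale against the tet-inducible E12.5 cells, but was higher by 0.83 ± 0.24 against the floxed cells (adjusted p = 0.0244).

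Vegfa, the endothelial growth factor, fell from 50.6 and 47.4 to 5.94 and 4.95 CPM (-3.21 ± 0.15). The floxed cells were below both stages, at 2.21 and 2.87 CPM. Pdk1, a kinase that inhibits pyruvate dehydrogenase, fell from 254 and 230 to 11.2 and 10.1 CPM (-4.53 ± 0.13). Bnip3, a mitophagy receptor, fell from 147 and 119 to 3.69 and 4.93 CPM (-4.94 ± 0.18). In the floxed cells Pdk1 was at 20.6 and 22.1 CPM and Bnip3 at 3.27 and 2.65 CPM. Glucose transporters and glycolytic enzymes fell less, as for Slc2a1 (-2.39 ± 0.12), Pfkl (-3.14 ± 0.11), Aldoa (-1.86 ± 0.11) and Pkm2 (-1.44 ± 0.11). The tested exception was Aldoc, a brain aldolase, with 828 and 681 CPM at E12.5 and 883 and 788 CPM at E13.5 (0.12 ± 0.10, adjusted p = 0.332).

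**Figure D3:**
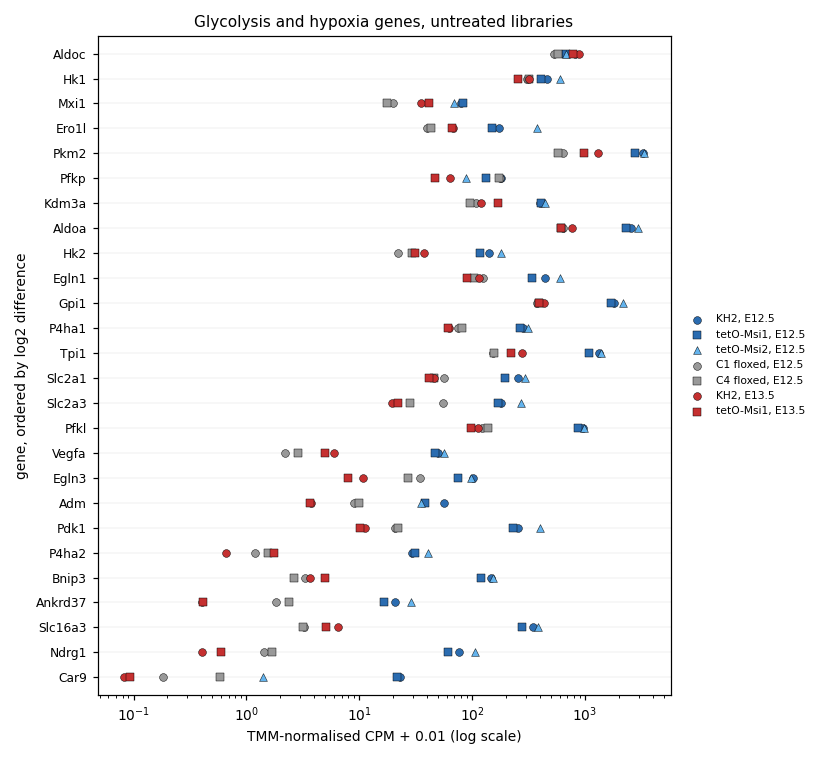
TMM-scaled CPM (log axis) of members of the glycolysis and hypoxia list in each untreated library, 1 point per library, colored as E12.5 tet-inducible, E12.5 floxed and E13.5 tet-inducible, with 0.01 added to each CPM. For Slc16a3, Bnip3 and Pdk1 the floxed E12.5 points lie near the E13.5 points and far below the tet-inducible E12.5 points.

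Genes of the G1/S transition and of DNA replication were higher at E13.5, while mitotic genes were not. Of 29 G1/S genes 25 were called higher (86.2%, against 25.6% of all genes), with a median of 0.95. None was called lower, against 25.2% of all genes (edgeR, also none at an unadjusted p under 0.05 and by DESeq2). All 29 were higher in the Dox-treated pair, where 52.8% of all tested genes were higher. Mcm2, a subunit of the replicative helicase, rose from 119 and 72.2 to 422 and 379 CPM (2.08 ± 0.14, adjusted p = 1.19e-06). Cdt1, which loads that helicase, rose from 26.5 and 17.5 to 91.4 and 77.2 CPM (1.93 ± 0.13). The floxed cells overlapped with E13.5 for Cdt1, at 93.6 and 75.6 CPM, and lay between the stages for Mcm2, at 313 and 259 CPM. Against the floxed cells 13 of the 29 were called higher and 4 lower (median 0.27). The count in the tet-inducible comparison dropped from 25 to 14 without the E12.5 MSI1 library, which had the lower level of both E12.5 libraries (1700 CPM summed, compared to 2340 CPM in KH2).

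Of 25 G2/M genes, none was called higher, against 25.6% of all genes (edgeR, also none at an unadjusted p under 0.05 and by DESeq2). At E13.5, 8 were called lower (32%, against 25.2% of all genes, median -0.25). Mki67, which marks dividing cells, was at 2276 and 2055 CPM at E12.5 and at 1694 and 2517 CPM at E13.5 (-0.09 ± 0.15, adjusted p = 0.62), with opposite directions in the lines. Ckap2, a spindle protein, fell from 528 and 527 to 289 and 375 CPM (-0.71 ± 0.11). The number called lower was 1 without the E12.5 KH2, 2 without the E12.5 MSI1, and 4 without the E13.5 KH2 library, where 2 were called higher. The floxed cells stood apart here. Their summed level was 1390 to 1550 CPM, compared to 9240 to 10600 CPM in the E12.5 pair and 8170 to 10600 CPM at E13.5, and all 25 genes were called higher in E13.5 than in the floxed cells (median 2.70).

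Cyclin D1 and many genes of the EGF and FGF response rose against the tet-inducible E12.5 cells, whereas more of them were lower than higher against the floxed cells. Ccnd1, the cyclin that couples mitogens to the cell cycle, rose from 90.1 and 60.1 to 453 and 348 CPM (2.40 ± 0.11, adjusted p = 1.04e-07), yet the floxed cells had 803 and 589 CPM. Of 17 genes of the EGF and FGF response 10 were called higher (58.8%, against 25.6% of all genes) and 1 lower (5.88%, against 25.2%), with a median of 0.60. Against the floxed cells 4 were higher and 9 lower (median -0.70), where 27.7% of all genes were called in each direction. Dusp6, a phosphatase induced by ERK, rose from 18.8 and 14.4 to 94.8 and 73.8 CPM (2.32 ± 0.12), and was at 246 and 179 CPM in the floxed cells. Spry4, a feedback inhibitor of receptor tyrosine kinases, rose by 1.55 ± 0.14. Egfr, the receptor for EGF, rose from 66.9 and 68.9 to 127 and 122.5 CPM (0.85 ± 0.11), and here the floxed cells were below both stages at 28.1 and 21.1 CPM. Dusp5 was the member called lower (-0.72 ± 0.21, adjusted p = 0.0165). Without the E12.5 KH2 or MSI1 library, 6 or 5 of the 17 were called higher.

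Immediate early genes were lower at E13.5. Of 20 tested 2 were called higher (10%, against 25.6% of all genes) and 11 lower (55%, against 25.2%), with a median of -0.79. Against the floxed cells 4 were called higher and 14 lower, where 27.7% of all genes were called in each direction. Both E13.5 libraries were below all 5 untreated E12.5 libraries for 7 of the 20, compared to 11.9% of all genes tested. Fos fell from 177 and 272 to 32.9 and 40.2 CPM (-2.63 ± 0.13, adjusted p = 1.44e-07), with 61.0 CPM in MSI2 and 52.3 and 54.4 CPM in the floxed cells. Junb fell from 35.3 and 46.7 to 8.77 and 4.88 CPM (-2.68 ± 0.26). The MSI2 library had 8.93 CPM of Junb, near the E13.5 level. Myc moved the other way, from 24.9 and 24.8 to 67.5 and 72.0 CPM (1.46 ± 0.12), and was at 278 and 281 CPM in the floxed cells. Without the E12.5 KH2 or MSI1 library, 8 or 6 of the 20 were called lower.

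Notch pathway genes, which keep NSCs undifferentiated, were called in both directions, as were genes in general. Of 22 tested 5 were called higher (22.7%, against 25.6% of all genes) and 8 lower (36.4%, against 25.2%), with a median of -0.09. The receptor Notch2 rose from 110 and 137 to 208 and 210 CPM (0.74 ± 0.12). The ligand Dll1 fell from 525 and 605 to 328 and 478 CPM (-0.54 ± 0.11), and the targets Nrarp and Hes5 fell by 0.83 ± 0.11 and 0.35 ± 0.10 on the log2 scale. Hes1, also a target, rose from 47.8 and 43.0 to 77.0 and 58.7 CPM (0.54 ± 0.12). Hes5 stood at 303 and 309 CPM at E12.5 and 240 and 250 CPM at E13.5, but at only 9.80 and 8.34 CPM in the floxed cells, so the gap between the E12.5 cultures was wider than that between the stages of the tet-inducible lines. Without the E12.5 KH2 or MSI1 library, 1 Notch gene was called higher and 4 lower in either case.

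Msi1 was slightly higher at E13.5. Msi1 (ENSMUSG00000054256), which encodes the RNA-binding protein Musashi-1, was at 69.1 and 67.9 CPM in KH2 and MSI1 cells at E12.5 and at 111 and 96.7 CPM at E13.5. The log2 difference was 0.57 ± 0.12 (adjusted p = 0.00226), or 1.48-fold. It was similar in KH2 cells, which hold no Msi1 cDNA (0.68), and in MSI1 cells (0.51). Both E13.5 libraries were above the 35.9 CPM of MSI2 and the 43.3 and 15.6 CPM of C1 and C4 cells. The call was lost without the E12.5 KH2 library (adjusted p = 0.0816) or the E12.5 MSI1 library (adjusted p = 0.103), with log2 differences of 0.56 and 0.53. In induced cells Msi1 was 369 CPM at E12.5 and 368 CPM at E13.5. Msi2 (ENSMUSG00000069769) was at 21.4 and 23.02 CPM at E12.5 and at 17.9 and 22.3 CPM at E13.5, and its log2 difference of -0.17 ± 0.15 did not pass the threshold (adjusted p = 0.341). Its sign changed when counts were corrected for gene length or GC content.

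Neural stem and radial glia genes did not shift as a group, with 6 of 25 called higher (24%, against 25.6% of all genes) and 7 lower (28%, against 25.2%). Nes, the intermediate filament Nestin, rose from 689 and 842 to 1569 and 1995 CPM (1.19 ± 0.10), between the E12.5 pair and the floxed cells (2568 and 2544 CPM). Sox2 fell from 1307 and 1178 to 1099 and 836 CPM (-0.40 ± 0.11, adjusted p = 0.0116). Fabp7, a lipid-binding protein of radial glia, was at 1604 and 1316 CPM at E12.5 and 1652 and 2306 CPM at E13.5 (0.40 ± 0.15, adjusted p = 0.0517). Without the E12.5 MSI1 library 2 were called higher and none lower, and without the E12.5 KH2 library 2 and 1.

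Of 15 developmental timing genes tested, 9 were called higher and 1 lower (median 0.85), against 25.6% and 25.2% of all genes. Fewer were called higher without the E12.5 KH2 or the E12.5 MSI1 library. The list mixes factors of early and of late progenitors with cyclins, so its direction is no measure of progression. Its largest called rises were Ccnd1 (2.40) and Ccnd2 (1.71). Zbtb20, a late progenitor factor, rose from 2.86 and 4.40 to 8.34 and 11.9 CPM (1.45 ± 0.23), with 0.853 and 1.77 CPM in the floxed cells. Prdm16, which regulates NSC maintenance, rose from 5.56 and 8.43 to 20.8 and 20.3 CPM (1.53 ± 0.20), but the floxed cells had 20.8 and 28.3 CPM. Nr2f1, which patterns the cortex, fell from 206 and 171 to 110 and 67.5 CPM (-1.15 ± 0.13). Against the floxed cells 8 were called higher and 6 lower of 19 (median -0.16). Hmga2, which is high in young progenitors, was below 0.5 CPM in all 4 libraries but at 17.4 and 22.5 CPM in the floxed cells.

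Glial genes moved in both directions. The astrocyte list had 43.8% called higher and 37.5% lower, and the oligodendrocyte list below had 45.5% and 27.3%. The shares of all genes were 25.6% and 25.2%. Of 16 astrocyte genes 7 were called higher and 6 lower, and 4 higher in either case and 3 or 2 lower without the E12.5 KH2 or MSI1 library. Gfap, the astrocyte filament, rose from 5.17 and 4.74 to 53.1 and 82.3 CPM (3.75 ± 0.19, adjusted p = 1.55e-07). It was at 161 and 416 CPM in the floxed and 0.0738 CPM in the MSI2 cells, so the E12.5 cultures spanned the E13.5 level. Apoe, an apolipoprotein, rose from 397 and 607 to 2359 and 2669 CPM (2.33 ± 0.13), with more in the floxed cells (3553 and 3764 CPM). Sparcl1, a secreted matrix protein, fell from 1671 and 1422 to 444 and 232 CPM (-2.29 ± 0.16), below all 5 untreated E12.5 libraries.

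Oligodendrocyte lineage genes gave 5 of 11 higher and 3 lower, of which 1 was called lower without the E12.5 MSI1 library. Mag, a myelin glycoprotein, rose from 0.463 and 0.0947 to 13.3 and 9.77 CPM (5.51 ± 0.40, adjusted p = 2.32e-06). The floxed cells had 5.17 and 4.40 CPM, so the rise was 45.6-fold against the tet-inducible and 2.40-fold against the floxed E12.5 cells, and Mag is 1 of 6 genes with at most 0.5 CPM in each E12.5 tet-inducible and at least 1 CPM in each other library. Gpr17, a receptor of committed precursors, rose from 8.03 and 10.8 to 51.7 and 46.5 CPM (2.34 ± 0.17). Both genes were above all 5 untreated E12.5 libraries. In contrast, Cnp, a myelin enzyme, fell from 743 and 1010 to 396 and 441 CPM (-1.08 ± 0.11), and Olig2, the lineage transcription factor, was at 531 and 487 CPM at E12.5 and 693 and 514 CPM at E13.5 (0.20 ± 0.11, adjusted p = 0.157).

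Neuronal and intermediate progenitor genes were low at both stages. The neuron list had 31.2% called higher and the intermediate progenitor list 20% higher and 50% lower. The shares of all genes were 25.6% and 25.2%. Of 16 neuron genes 5 were called higher and none lower (median 0.21; edgeR, 1 lower at an unadjusted p under 0.05 and none by DESeq2), with a summed level of 209 to 213 CPM at E12.5 and 297 to 314 CPM at E13.5, compared to 727 to 813 CPM in the floxed cells. Only 2 were called higher without either the E12.5 KH2 or the E12.5 MSI1 library. Elavl3, a neuronal RNA-binding protein, rose from 6.79 and 9.19 to 17.1 and 21.9 CPM (1.26 ± 0.17). Of 10 intermediate progenitor and proneural genes 2 were called higher and 5 lower, and none higher and 2 or 3 lower without the E12.5 MSI1 or KH2 library. Against the floxed cells 7 of 9 were called higher and 1 lower (median 1.76). Neurog2, the proneural factor of cortical glutamatergic neurons, fell from 2.70 and 3.22 to 0.179 and 0.167 CPM (-4.14 ± 0.47, adjusted p = 5.48e-05).

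Regional markers differed between the cultures. Of 7 dorsal forebrain genes 1 was called higher and 5 lower, and of 8 ventral forebrain genes 3 were higher and 2 lower. The shares of all genes were 25.6% higher and 25.2% lower. Six3, an anterior forebrain factor, rose from 8.88 and 20.5 to 66.6 and 86.7 CPM (2.41 ± 0.18), above all 5 untreated E12.5 libraries. Dlx2, a factor of ventral progenitors, was at 0 and 0.521 CPM at E12.5 and at 5.98 and 5.84 CPM at E13.5. The MSI2 cells had 0.369 CPM of Dlx2, and the floxed C1 and C4 cells 3.24 and 1.64 CPM. Among 5 midbrain, hindbrain and cord genes En2 rose from 7.56 and 12.2 to 15.4 and 41.6 CPM (1.41 ± 0.19), and Irx5 fell from 13.4 and 14.6 to 2.90 and 2.06 CPM (-2.56 ± 0.24). None of the dorsal genes was called lower without either E12.5 library, the KH2 or the MSI1.

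Markers of other cell types were low or did not move together. The 16 microglia and blood genes in the tables summed to 2.32 to 2.98 CPM at E12.5 and 1.65 to 1.78 CPM at E13.5, and the 13 epithelial genes to 1.62 to 2.65 and 0.215 to 0.766 CPM. Endothelial genes summed to 12.7 to 13.2 CPM at E12.5 and 4.73 to 5.41 CPM at E13.5, with both tested genes called lower. Mesenchyme and pericyte genes summed to 700 to 747 and 631 to 640 CPM, with 2 of 8 called higher and 2 lower, but reached 2160 to 2290 CPM in the floxed cells. None of 3 neural crest genes was called (edgeR, also none at an unadjusted p under 0.05 and by DESeq2).

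**Figure D4:**
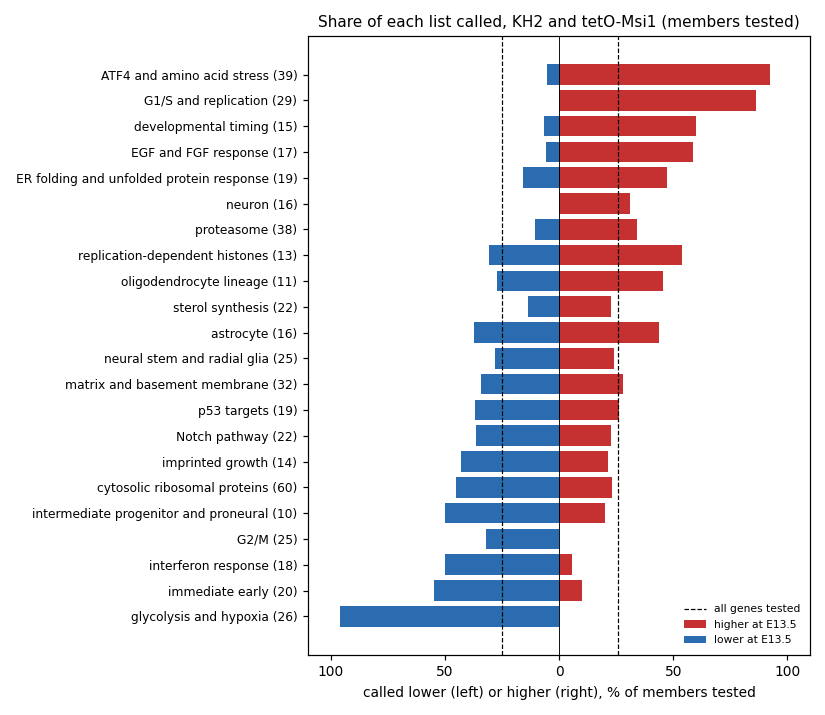
Percentage of tested members of each gene list with at least 10 tested members that were called higher (right) or lower (left) at E13.5 in the tet-inducible lines, with the shares over all 11893 genes, 25.6% and 25.2%, as reference lines. The ATF4 list (92.3%) and the G1/S list (86.2%) reach farthest on the higher side and the glycolysis and hypoxia list (96.2%) on the lower side, and several other lists also pass a reference line.

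The remaining lists are set beside the shares of all genes called, 25.6% higher and 25.2% lower. Of 13 tested replication-dependent histone genes, most of whose mRNAs lack a poly(A) tail, 7 were called higher and 4 lower (median 1.68), and 9 and 2 against the floxed cells (median 3.14). Their median was -0.39 without the E13.5 KH2 and -0.23 without the E13.5 MSI1 library, where 9 genes were tested and 3 were called higher and 4 lower in either case. The 7 tested mitochondrially encoded genes gave 5 lower and none higher (median -0.75, edgeR, also none at an unadjusted p under 0.05 and by DESeq2), and 2 lower without the E12.5 MSI1 and 3 without the E12.5 KH2 library. With a GC offset 1 was called higher and 3 lower, and the median was -0.20. Their summed level was 50700 to 53100 CPM at E12.5 and 28800 to 42000 CPM at E13.5. In this list mt-Co1, a subunit of cytochrome oxidase, fell from 22827 and 21164 to 10809 and 15262 CPM (-0.80 ± 0.14). Interferon response genes had 1 of 18 higher (5.56%) and 9 lower (50%, median -0.84). Proteasome genes had 13 of 38 higher (34.2%) and 4 lower (10.5%, median 0.12). For p53 targets 5 of 19 were higher (26.3%) and 7 lower (36.8%). Matrix and basement membrane genes had 9 of 32 higher (28.1%) and 11 lower (34.4%), and sterol synthesis genes 5 of 22 higher (22.7%) and 3 lower (13.6%). Without the E12.5 MSI1 library these counts were 0 and 6 for the interferon, 3 and 3 for the proteasome, 3 and 1 for the p53, 5 and 7 for the matrix and 0 and 2 for the sterol list. Of 14 imprinted growth genes 3 were called higher and 6 lower, and 1 and 5 without the E12.5 KH2 or 1 and 4 without the E12.5 MSI1 library. Mest rose by 1.52 ± 0.14 on the log2 scale, and H19 fell from 11.8 and 10.7 to 1.54 and 2.36 CPM.

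**Figure D5:**
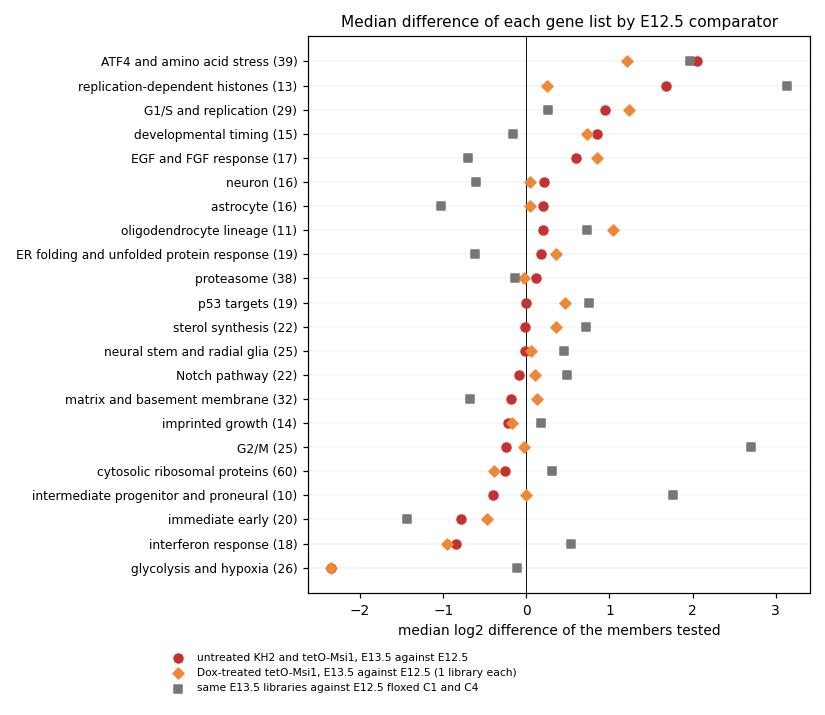
Median log2 difference of each gene list with at least 10 tested members for E13.5 against the E12.5 tet-inducible cells, against the E12.5 floxed cells, and in the Dox-treated MSI1 pair. The ATF4 list is near 2 in both fits and at 1.21 in the Dox-treated pair, while the glycolysis and hypoxia list is at -2.35, -0.11 and -2.35, and the G2/M list at 2.70 against the floxed cells only.

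Many of the largest falls were of genes that also separated the E12.5 tet-inducible libraries from the floxed libraries. Among the 12 largest was Slc24a5, a pigment cell exchanger, which was at 103 and 95.8 CPM (KH2, MSI1) and 108 CPM (MSI2) at E12.5, without a read at E13.5, and at 0.0174 and 0 CPM in the floxed E12.5 cells. Taking 3 counts over both E13.5 libraries as the floor, Slc24a5 was at least 2890-fold lower and Gpr39, a zinc-sensing receptor, at least 1080-fold. An entry named Map3k4 (ENSMUSG00000079716) was at least 451-fold lower. Its counted length was only 278 nt, so this value cannot be read as a fall of the Map3k4 kinase mRNA. In all, 133 genes had at least 1 CPM in each of the 6 E12.5 tet-inducible libraries and at most 0.5 CPM in each of the 7 others, and the reverse held for 6 genes. Of the 133, 45 had a counted length of at least 500 nt. The share over all genes was not computed, so this count is not a trait of these genes. Not every large fall was of this kind, since Gm10159, a predicted gene at 21.3 and 22.5 CPM in the E12.5 pair and without a read at E13.5, was at 0.0738 CPM in MSI2 and 5.74 CPM in C1 cells. The stage and the batch cannot be told apart for the 133 genes in the tet-inducible comparison. The low level of these genes in the floxed E12.5 cells was fixed by the rule that picked them and is not a further result.

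The 2 largest rises, the ribosomal protein genes Rpl30 and Rpl3, were uneven within a stage. Rpl30 was at 0.309 and 0.0474 CPM in the E12.5 KH2 and MSI1 and at 108 and 172 CPM in the E13.5 libraries, but at 221 CPM in MSI2, 0.0870 CPM in C1 and 105 CPM in C4 cells. Rpl3 likewise was near 0 only in the E12.5 KH2 and MSI1 libraries. Genes of this family share reads with near-identical copies, so their values are uncertain. Of 149 ribosomal protein genes 60 were tested, with 14 higher and 27 lower (median -0.26). A length offset gave 19 and 17 (median 0.0038), and 5 and 11 were called without the E12.5 KH2 and 7 and 12 without the E12.5 MSI1 library.

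Transcripts of the Y chromosome differed between the cultures. Kdm5d was at 0.0772 CPM in KH2, 170 CPM in MSI1 and 197 CPM in MSI2 cells at E12.5, and at 0 in both E13.5 and both floxed lines. Eif2s3y (0.154, 101 and 113 CPM) and Ddx3y (0.0772, 94.6 and 117 CPM) had the same pattern and were likewise at 0 in the other cultures. The MSI1 cultures of the stages thus differed in Y-linked transcripts, while the KH2 cultures had almost none at either stage. Of the ATF4 list 37 of the 39 tested members were higher at E13.5 in both lines, and of the glycolysis and hypoxia list 25 of the 26 were lower in both. Among all 11893 genes tested, 5247 were higher in both lines and 4758 lower in both. Whether the difference in Y-linked transcripts bears on these lists was not tested.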

How the data were processed

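Cortical NSCs were profiled with poly(A)+ paired-end RNA-Seq. Per the labels and the methods, reads were mapped to mm9 with TopHat and Bowtie (versions not given in the sources used here) and assigned to Ensembl genes by the authors, who deposited for each library the count, the counted length and an RPKM value per gene. The counted lengths were often shorter than the transcripts. The RPKM scale differed between batches, so the deposited counts were used and RPKM values served only to find the reads behind them. Each file held 22623 genes, of which 20966 matched a symbol of the mm9 annotation and 5134 were at 0 in all 14 libraries. Ribo-Seq tables, which have no E13.5 sample, were not used.

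E13.5 KH2 and MSI1 (technical replicates A and B summed) were compared with E12.5 KH2 and MSI1 without Dox by edgeR's quasi-likelihood test (edgeR 4.0.16, R 4.3.3) with TMM scaling, a minimum of 1 CPM in 2 libraries, the line as a block and Benjamini-Hochberg adjustment at 0.05. The floxed comparison had no block and shared the E13.5 libraries. The block leaves 1 residual degree of freedom, so the spread of each gene leans on all genes. The Dox-treated pair had 1 library per stage, and its 95% interval covers counting error only. Differences within a line used a pseudocount of 0.5. Scripts were tested on simulated data. Alternatives were other size factors, other filters, DESeq2 1.42.0, thinning, length and GC offsets, omission of libraries, no block and the MSI2 library.

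The comparison, its members and the gene lists were chosen with earlier results of these data known. Named by rule were Msi1, Msi2, Trib3, Chac1 and Y-linked genes, the 12 largest rises and falls called in the same direction in both lines with a mean of at least 5 CPM in the higher stage, and up to 4 called members of each list per direction. Other genes named were chosen after their values were seen.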

Additional observations from a re-analysis of the deposited data

Results flagged for a closer look

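For 3 genes called in the tet-inducible comparison, the stages differed in opposite directions in the KH2 and MSI1 lines, and this difference between the lines was not tested. Ccdc80, a secreted matrix protein, had log2 differences of 0.01 in KH2 and -1.85 in MSI1 cells. Egr1, an immediate early transcription factor, had 0.06 in KH2 and -1.38 in MSI1 cells. Sc4mol, an enzyme of sterol synthesis, had -0.83 in KH2 and 0.01 in MSI1 cells. In each gene 1 of the lines was close to 0. The adjusted p-values of the calls (edgeR) were 0.0425, 0.0434 and 0.0461.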

How the results depend on the processing

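The numbers called higher and lower at E13.5 (3040 and 2999) stayed within 1.5 times under other size factors, filters, DESeq2 (2259 and 2314), thinning, no line block and addition of the MSI2 library (2419 and 2345), whereas leaving out each library in turn, technical replicates included, gave 1089 to 3008 higher and 1050 to 2972 lower. The main fit pairs the libraries of a line by a block, and without it the counts were 2531 and 2510. The fits that left out a whole library had no block either. A length offset shifted the median of all genes by 0.11 (log2) and moved the calls to 3765 higher and 2568 lower, so 59.5% of calls were higher compared to 50.3%, and a GC offset gave 3397 and 2637 (56.3%). Against the floxed cells, leaving out each library gave 2295 to 3256 higher and 2174 to 3296 lower. Msi2 turned to 0.037 with the length offset (adjusted p = 0.848) and to 0.0013 with the GC offset (adjusted p = 0.994), and Sox3 from -0.57 to 0.088 with the GC offset (adjusted p = 0.536, all edgeR). The cause was not tested. Of the named genes, 49 and 56 of 155 were no longer called without the E12.5 KH2 or MSI1 library. Depth limits genes with few reads at E12.5, as for Trib3.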

Other observations

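Among genes outside every list, the largest rises shared by the tet-inducible and the floxed comparison (by the smaller of both log2 differences, a rule chosen after values were seen) included Cyb5r2, an NADH-cytochrome b5 reductase. It was at 0.309 and 0.426 CPM in KH2 and MSI1 cells at E12.5, at 3.76 CPM in MSI2, at 0.366 and 0.219 CPM in C1 and C4 and at 19.7 and 13.8 CPM at E13.5. Ddr2, a collagen receptor, rose from 5.17 and 4.97 CPM at E12.5 to 73.1 and 58.8 CPM at E13.5 (log2 difference 3.65). Among the shared falls, Clec3b, which encodes tetranectin, went from 36.0 and 35.1 to 2.18 and 0.966 CPM (log2 difference -4.65), with 140 CPM in MSI2 and 16.8 and 40.1 CPM in C1 and C4 cells.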
